A study of Mus musculus with 2 samples.

Results

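The Hox genes encode homeodomain transcription factors that lie in 4 clusters, Hoxa to Hoxd, and give cells their position along the body axis. They were taken from the deposited table by symbol, as every mouse gene named Hox with a cluster letter and a number, which gave 39 genes of 20720 symbols. Genes of the same number in different clusters are paralogs, and the numbers run from 1 at the anterior end of a cluster to 13 at the posterior end. The higher-numbered genes are used further back in the embryo and, in the gut, more distally. Hox clusters are classical targets of Polycomb repressive complexes 1 and 2, which keep them silent where they are not used. Ring1 (Ring1a) and Rnf2 (Ring1b) encode the ubiquitin ligases of the first of these complexes.

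Messenger RNA was sequenced from small-intestinal villi of C57BL/6 mice, the finger-shaped folds of the gut lining that are covered by mature epithelial cells. The dKO-labelled library (double knockout) carried Rosa26-CreERT2, Cdkn2a-/-, Ring1a-/- and Ring1bf/f, and the control library carried Rosa26-CreERT2 and Cdkn2a-/-. Both genotypes had received 3 tamoxifen injections and were taken 6 days later. Age and the number of animals behind a library are not given in the labels. The Rosa26 locus is active in nearly all cell types, so the Cre is not restricted to the epithelium by its promoter, and recombination itself was not measured. The Ring1a allele is not labelled as conditional. Each genotype had 1 library, so no difference has a replicate check and none was tested. Values are reads recovered from the deposited normalised counts, and intervals are 95% exact intervals for counting error only.

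The dKO-labelled library held 1058196 reads and the control library 775827, and the deposited size factors differ by a ratio of 1.11. Ring1 had 10 reads in the dKO-labelled library and 10 in the control, and Rnf2 had 82 and 59, so neither targeted gene was lower beyond counting error. Counts over whole transcripts do not show deleted exons and are no check of the deletion. Villus epithelium markers were present in both libraries, 10 of 10 in each, with 14161 and 11415 summed reads. Xist, the X inactivation RNA, had 1 read in the dKO-labelled library and 80 in the control, and the Y-linked Ddx3y had 131 and 0, so sex and genotype cannot be told apart. In bulk tissue, fewer cells of a type and less RNA per cell cannot be told apart either.

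Hox transcripts were nearly absent from the control villi and present across all 4 clusters in the dKO-labelled villi. The 39 genes together had 696 reads in the dKO-labelled library and 19 in the control, which is 658 and 24.5 CPM (reads scaled to a common library total). After size-factor scaling the sum was 33.0-fold higher (21.0 to 55.2). At least 1 read was found for 32 Hox genes (82.1%) in the dKO-labelled library and for 8 (20.5%) in the control, against 67.2% and 59.2% of all symbols. The Hox share thus lay above that of all symbols in the dKO-labelled library and below it in the control. The deeper library was the dKO-labelled one, but drawing from it only as many reads as the control held would leave 30.1 Hox genes detected on average.

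Before scaling for depth, direction was the same in every Hox gene with a read. In the dKO-labelled library 32 had more reads and 0 had fewer, while over all symbols 53.4% had more and 16.2% had fewer. That library was the deeper, so the direction of a gene with near-equal counts, such as Hoxb8 with 7 and 5, depends on the scaling. By size, 21 of the 39 (53.8%) were at least 2-fold higher on the log2 scale of normalised count plus 1, against a background of 17.9% of all symbols, and 0 were at least 2-fold lower, against 4.31%. The median log2 ratio of the 39 genes was 1.11, and that of all symbols 0.10. By another rule, a counting interval wholly above 1, 11 genes (28.2%) were called higher, against 20.3% of all symbols, and 0 lower, against 4.27%. That share is close to the background, and a gene with few reads cannot meet the rule. Of the 31 Hox genes with no read in the control, 12 (38.7%) had at least 5 reads in the dKO-labelled library, against 4.98% of all symbols at 0 there. With at least 1 read required the count was 24 (77.4%) against 33.7% of symbols, with 10 reads 7 (22.6%) against 1.47%, and with 20 reads 1 (3.23%) against 0.367%. The mirror count, at least 5 reads in the control and none in the dKO-labelled library, was 0 among 7 Hox genes, against 0.78% of symbols.

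**Figure D1:**
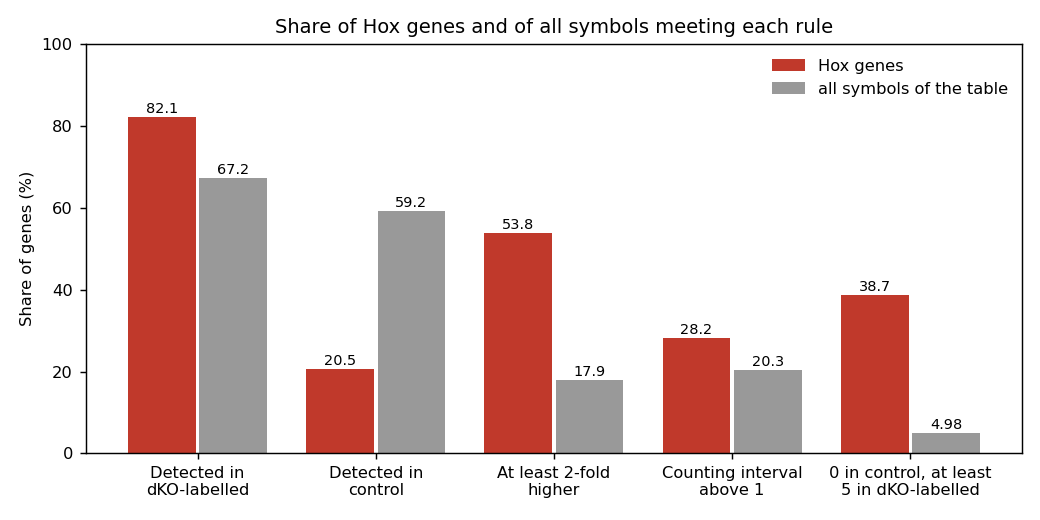
Share of genes in percent (vertical axis) that met each of 5 rules, for the Hox genes (red) and for all symbols of the table (grey); the last pair is taken over genes with no read in the control. The Hox bars are lower for detection in the control (20.5 against 59.2) and higher for the other rules, least so for the counting interval (28.2 against 20.3).

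The Hoxb cluster held 82.6% of the Hox reads of the dKO-labelled library, and Hoxb13 alone 64.8%. Hoxb13, the posterior-most gene of its cluster and known from the prostate and the distal large bowel, had 451 reads in the dKO-labelled library and 0 in the control. Set against a floor of 3 reads in the control, it was 136-fold higher, and its counting interval began at 110-fold. In the authors' deposited table it had the smallest p-value, 1.78e-05 unadjusted, and 0.392 after Benjamini-Hochberg adjustment over all transcripts. Hoxb4, with an unadjusted p of 0.0275 in the authors' deposited table, was the other of 2 Hox genes under 0.05, against 0.558% of all transcripts, or 0.472% when only those higher are counted. DESeq had no replicates here from which to measure spread.

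Hoxb13 also stood apart by level. Per kilobase of transcript it had 194 normalised reads (177 to 213) in the dKO-labelled library, at percentile 96.9 of all symbols with a transcript length. Hoxb4, studied for its role in blood stem cells, came next with 18.9 (14.0 to 24.8), at percentile 80.1. The intervals of these levels do not overlap. Hoxb6 (12.2 per kilobase, 7.12 to 19.6), Hoxb7 (11.8, 6.73 to 19.1) and Hoxb9 (7.75, 4.79 to 11.8) followed, and each of these intervals overlaps that of its neighbour in the order. In the control the highest level was that of Hoxb8, with 2.00 per kilobase.

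In reads, Hoxb4 had 51 in the dKO-labelled library and 2 in the control, a ratio of 23.0 (6.05 to 195). Hoxb6 had 17 and 0 and Hoxb7 16 and 0. Against the floor of 3 control reads they were 5.11- and 4.81-fold higher, with counting intervals from 3.72 and 3.48. Hoxb9, which helps to set the identity of the ribs, had 21 reads in the dKO-labelled library and 3 in the control, a ratio of 6.31 (1.88 to 33.0). These 4 genes and Hoxb13 are the Hoxb members whose counting interval lay above 1. Hoxb5 had 5 reads in the dKO-labelled library and 0 in the control, and the hindbrain gene Hoxb2 had 5 and 1. Hoxb1, which marks a single segment of the embryonic hindbrain, and Hoxb3 each had 1 and 0. Hoxb8 was the member nearest to equality, with 7 reads in the dKO-labelled library and 5 in the control (ratio 1.26, 0.345 to 5.04). It was also the Hox gene with most reads in the control. Outside Hoxb13 the cluster had 124 and 11 reads, a ratio of 10.2 (5.49 to 20.9). With Hoxb13 included, all 10 Hoxb genes were detected in the dKO-labelled library and 4 in the control.

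**Figure D2:**
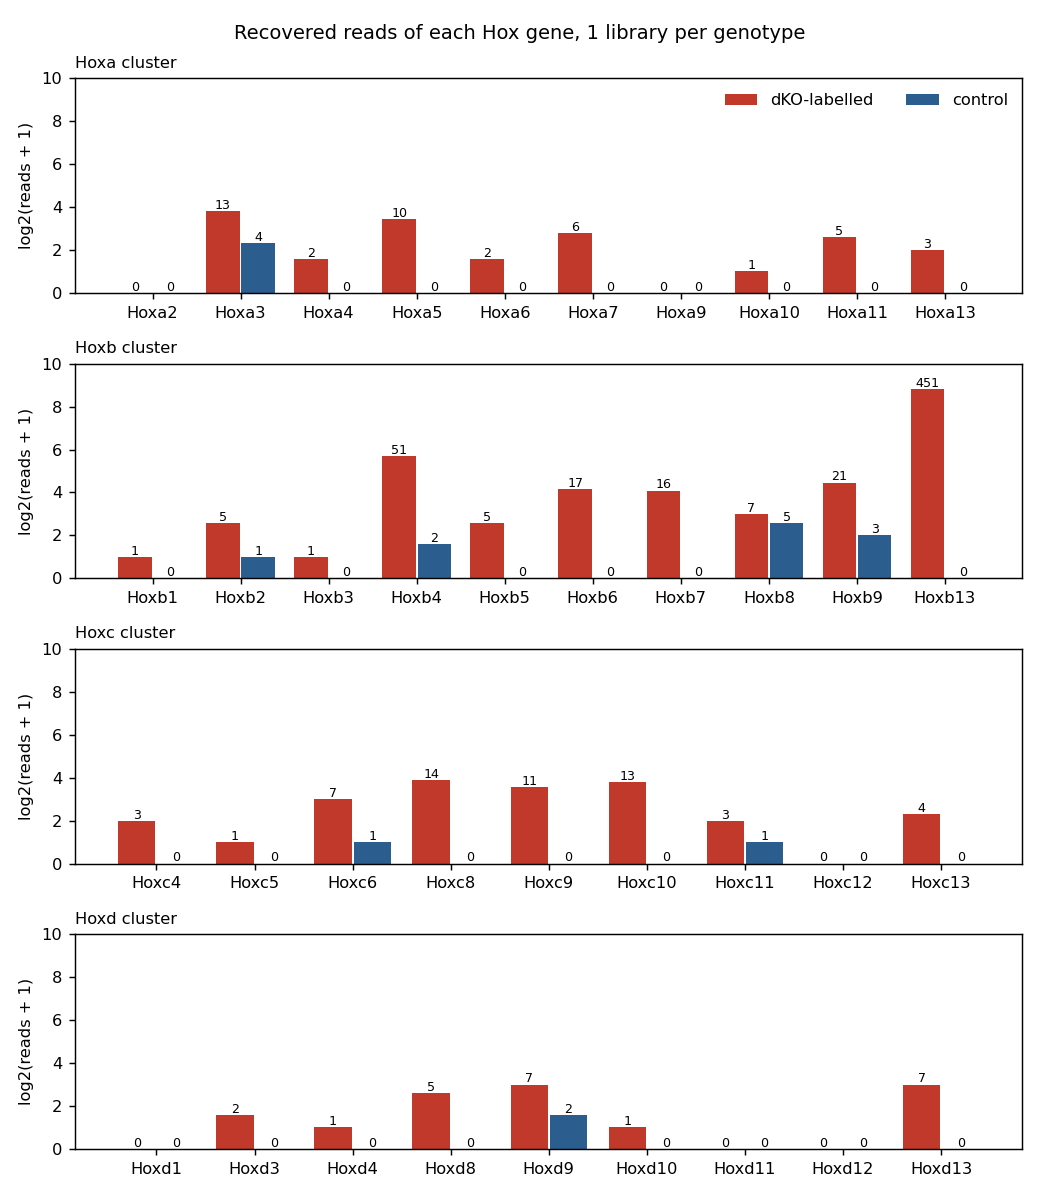
Recovered reads of each Hox gene as log2(reads + 1), with the dKO-labelled library in red and the control in blue, 1 panel per cluster in order of paralog number and the read count above each bar. It shows 38 genes, and Hoxb13 (451 against 0) and Hoxb4 (51 against 2) are the tallest red bars.

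In the Hoxc cluster the reads lay in its middle. Hoxc8, Hoxc9 and Hoxc10, which specify motor neurons at successive levels of the spinal cord, had 14, 11 and 13 reads in the dKO-labelled library and 0 each in the control. Against the floor of 3 control reads they were 4.21-, 3.31- and 3.91-fold higher, with counting intervals from 2.99, 2.26 and 2.75. Hoxc6 had 7 reads in the dKO-labelled library and 1 in the control, and Hoxc11 had 3 and 1. Hoxc13, a gene of hair follicles, had 4 and 0, Hoxc4 3 and 0, and Hoxc5 1 and 0. Hoxc12 had no read in either library. The cluster summed to 56 reads in the dKO-labelled library and 2 in the control, a ratio of 25.2 (6.67 to 214).

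The Hoxa cluster had 42 reads in the dKO-labelled library and 4 in the control (ratio 9.46, 3.43 to 36.3), and all 4 control reads belonged to Hoxa3. Hoxa3, needed for the thymus and parathyroid, had 13 reads in the dKO-labelled library against those 4 (ratio 2.93, 0.905 to 12.3). Hoxa5, a gene of lung and gut maturation, had 10 and 0, and Hoxa7 had 6 and 0. Against the floor of 3 control reads they were 3.00- and 1.80-fold higher, with counting intervals from 2.02 and 1.06. Hoxa11, which patterns the forearm, kidney and uterus, had 5 and 0. The counts were 3 and 0 for Hoxa13, which shapes digits and the hindgut outlet, 2 and 0 each for Hoxa4 and Hoxa6, and 1 and 0 for Hoxa10. Hoxa2, a gene of the branchial arches, and Hoxa9, a gene of blood progenitors, had no read in either library.

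The Hoxd cluster had the fewest reads, 23 in the dKO-labelled library and 2 in the control (ratio 10.4, 2.56 to 90.7). Hoxd13, a gene of digits and of the anal sphincter, had 7 and 0. Against the floor of 3 control reads it was 2.10-fold higher, with a counting interval from 1.30. Hoxd9 had 7 reads in the dKO-labelled library and 2 in the control (ratio 3.15, 0.601 to 31.1). Hoxd8 had 5 and 0, Hoxd3 2 and 0, and Hoxd4 and Hoxd10 1 and 0 each. Hoxd1, Hoxd11 and Hoxd12 had no read in either library. Across the 4 clusters 12 genes rested on 1 to 3 reads in the dKO-labelled library, and 7 had none in either. A count of 0 allows up to 2.84 CPM in the dKO-labelled library and 3.87 CPM in the control, so low expression below these levels was not detectable at this depth.

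With Hoxb13 left out, the clusters were alike in ratio within wide counting intervals. The sum over the other 38 genes was 245 reads in the dKO-labelled library and 19 in the control, 11.6-fold higher (7.28 to 19.6). The 4 cluster ratios, 9.46, 10.2, 25.2 and 10.4 from Hoxa to Hoxd, have intervals that all overlap. No difference between clusters was tested.

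Position along the clusters was examined by paralog number. The anterior genes, groups 1 to 3, had 22 reads in the dKO-labelled library and 5 in the control (8 genes, ratio 3.97, 1.47 to 13.4). The central genes, groups 4 to 8, had 147 and 8 (15 genes, ratio 16.6, 8.19 to 39.1), and all 15 were detected in the dKO-labelled library, 3 in the control. The posterior genes, groups 9 to 13, had 527 and 6 (16 genes, ratio 79.2, 36.1 to 217), which became 76 and 6 without Hoxb13 (ratio 11.4, 5.01 to 32.1). Among the 12 genes at 0 in the control that reached at least 5 reads, 0 were anterior, 7 central and 5 posterior. The genes at 0 in the control numbered 6 anterior, 12 central and 13 posterior. The anterior genes thus had the lowest ratio, although its interval overlaps those of the other positions once Hoxb13 is left out.

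Paralogs of one number did not share one level. In group 13 all 4 genes had reads in the dKO-labelled library and none in the control, but 451 of the 465 reads were of Hoxb13. In group 9, reads in the dKO-labelled library were 0 for Hoxa9, 21 for Hoxb9, 11 for Hoxc9 and 7 for Hoxd9. Group 12, which has 2 members, had no read in either library, and group 1, with 3 members, had 1 read in the dKO-labelled library and 0 in the control.

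Markers of stromal cells, which express Hox genes in the gut wall, were also higher in the dKO-labelled library. Fibroblast markers summed to 186 reads in the dKO-labelled library and 22 in the control over 5 genes (ratio 7.62, 4.89 to 12.5), with 4 of 5 detected in each and Dcn at 0 in both. Col1a1 had 43 and 4 reads and Col3a1 72 and 8. Smooth muscle markers summed to 188 and 41 over 6 genes (ratio 4.13, 2.94 to 5.95), with Acta2 at 72 and 3 and Myh11, a defining gene of mature muscle, at 1 and 0. The interval of the summed Hox ratio without Hoxb13 overlaps that of the fibroblast markers and lies above that of the smooth muscle sum. That sum depends on Tagln, which held 21 of its 41 control reads and had 51 in the dKO-labelled library (ratio 2.19, 1.29 to 3.83). By gene, the interval of Tagln lies below that of the Hox sum. Those of Acta2 (ratio 21.6, 7.11 to 107) and Des (4.28, 1.97 to 10.6) overlap it. Immune markers had 98 and 61 reads (ratio 1.45, 1.04 to 2.03), with Ptprc at 0 in both. Endothelial markers had 49 and 53 (0.833, 0.553 to 1.25), a sum that rests on Tie1 with 5 reads in the dKO-labelled library and 48 in the control. By the 2-fold limit 3 of the 6 endothelial genes were higher and 1, Tie1, was lower, against 17.9% and 4.31% of all symbols. Higher by that limit were 4 of 5 fibroblast, 4 of 6 smooth muscle and 3 of 7 immune markers. The count was 1 of 3 for the distal gut, 0 of 7 for enteric neurons and glia and 0 of 10 for villus epithelium. Without Tie1, which was singled out after its values were seen, the endothelial sum was 44 and 5 (7.93, 3.15 to 25.6). Lyve1 had 19 and 1 reads, Plvap 13 and 3 and Vwf 10 and 0. Markers of enteric neurons and glia had 29 and 41 (0.638, 0.382 to 1.05), of which Ret had 17 and 33, and without Ret, also singled out afterwards, the sum was 12 and 8 (1.35, 0.508 to 3.81). Among markers of the distal gut, Retnlb had 3 reads in the dKO-labelled library and 10 in the control, and Car1 had none in either. The part of any of these cell types in the Hox reads was not tested.

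**Figure D3:**
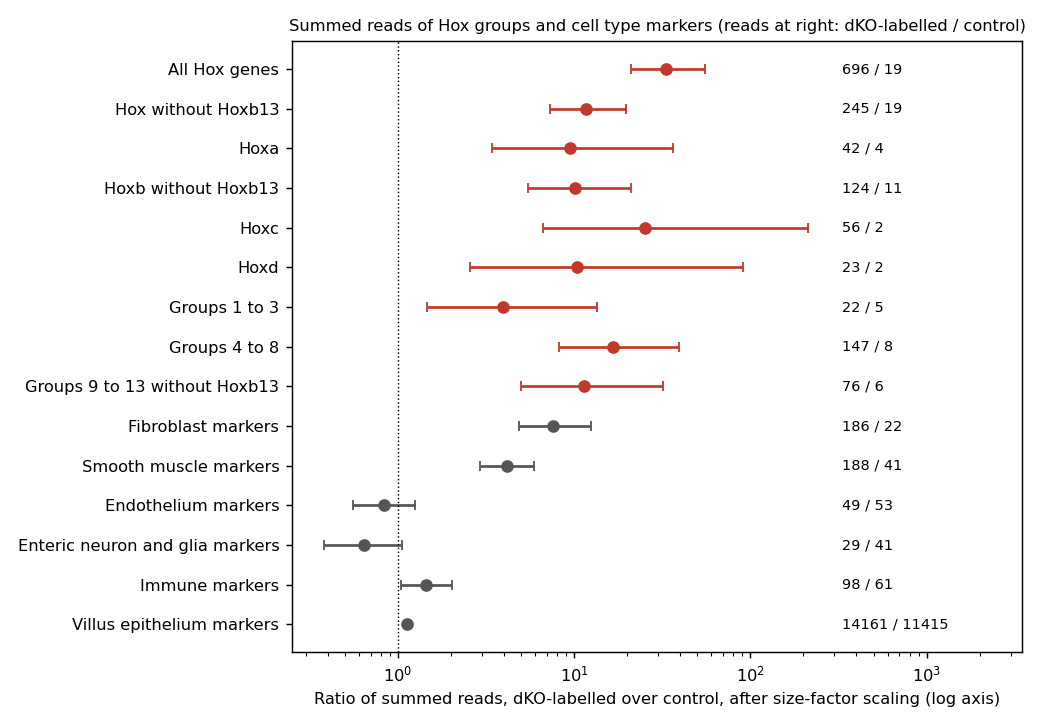
Ratio of summed reads, dKO-labelled over control after size-factor scaling, on a log axis, for Hox groups (red) and cell type markers (grey); bars are 95% counting intervals and summed reads stand at right. All 9 Hox groups lie above 1, the Hox sum without Hoxb13 at 11.6, fibroblast markers at 7.62 and villus epithelium markers at 1.12.

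The genes next to the clusters give a local comparison. The 5 nearest protein-coding genes on each side of each cluster were taken from a RefSeq gene table of assembly GRCm38.p6, which was used for gene order alone, and 34 of them were matched. At least 2-fold higher were 11 (32.4%) and lower 1, with a median log2 ratio of 0.44, against 17.9% and 4.31% of all symbols. Neighbours are mostly expressed genes, and among symbols with a mean normalised count of at least 20 the share higher was 26.2%. The 34 summed to 4039 reads in the dKO-labelled library and 2961 in the control, far less unequal than the Hox reads.

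Directly beyond Hoxa13, Evx1, an even-skipped homeobox gene and itself a developmental regulator, had 13 reads in the dKO-labelled library and 0 in the control. Its counterpart Evx2, beyond Hoxd13, had none in either. Beyond Hoxb13, Ttll6, a tubulin-modifying enzyme, had 22 and 2 reads (ratio 9.92, 2.44 to 87.0), Calcoco2 had none in either, and Atp5g1, an ATP synthase subunit, had 19 and 3. On the other side of Hoxb lay Skap1 with no read and Snx11 with 1 and 1, and further out Cbx1 with 31 and 10 and Copz2 with 21 and 2. Around Hoxc, Calcoco1 had 19 and 5, Atp5g2 308 and 111, Tarbp2 14 and 2, Smug1 24 and 10 and Copz1 802 and 539. Around Hoxa, Skap2 had 144 reads in the dKO-labelled library and 201 in the control, Cbx3 91 and 33, Hnrnpa2b1 18 and 16, Hibadh 60 and 35 and Tax1bp1 681 and 797. Around Hoxd, Mtx2 had 76 and 24, Nfe2l2 175 and 78, Atp5g3 649 and 361 and Agps 105 and 234, the only neighbour at least 2-fold lower. Further out on the side of Hoxb13, Ube2z had 411 and 263 and Snf8 338 and 220. The genes directly beside the clusters were thus mixed. Of them Evx1 and Ttll6 were nearly silent in the control and had over 10 reads in the dKO-labelled library. This was not particular to them, since Copz2 (21 and 2), Tarbp2 (14 and 2) and Atp5g1 (19 and 3) lie further out.

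**Figure D4:**
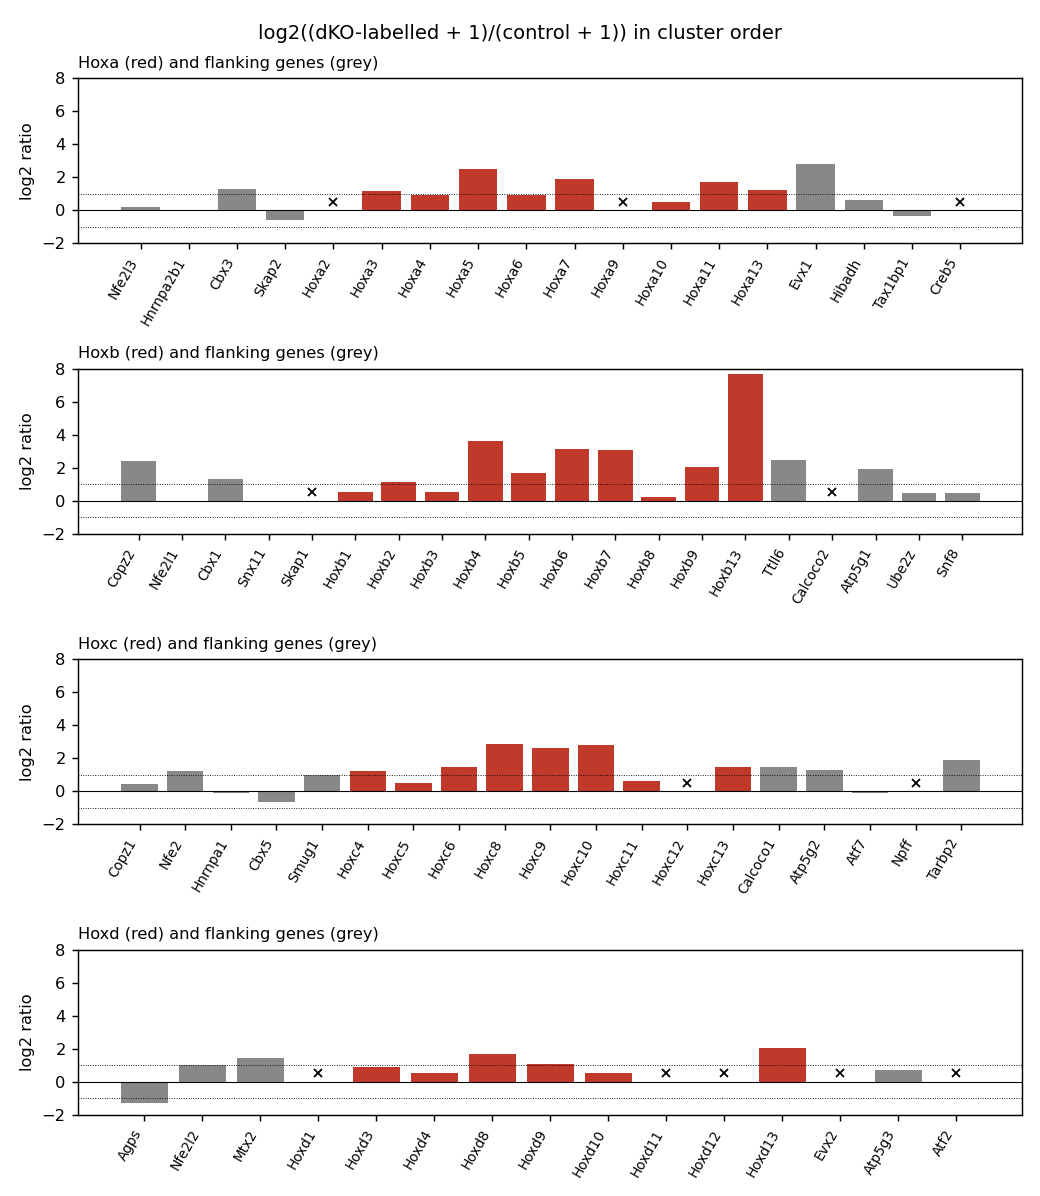
log2 ratio, dKO-labelled over control, of normalised counts plus 1, for 38 Hox genes (red) and the matched flanking genes (grey), 1 panel per cluster from the anterior side at left to the posterior side at right; crosses mark genes with no read in either library and dotted lines a 2-fold difference. Hoxb13 stands highest, Evx1 and Ttll6 are raised beside their clusters, Copz2, Atp5g1 and Tarbp2 are raised further out, and Agps is the lowest bar.

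Noncoding RNAs of the clusters were measured for 5 listed names, and they had 26 reads in the dKO-labelled library and 0 in the control. Hoxa11os, transcribed antisense to Hoxa11, had 15 and 0 reads. The library kit does not mark strand and both genes overlap in the RefSeq table, so their reads cannot be told apart with certainty. Hotair, which lies in the Hoxc cluster, had 2 and 0. Of the microRNA rows, Mir196b, which lies near Hoxa9 and Hoxa10, had 6 and 0, Mir196a-1 in the Hoxb cluster 3 and 0, and Mir196a-2 in the Hoxc cluster none. A messenger RNA library does not capture mature microRNAs, so these are reads of longer transcripts over the hairpins. Their mature sequences (RefSeq, GRCm38.p6) are shown because in mouse embryos miR-196 cuts Hoxb8. Any part of miR-196 in the reads of Hoxb8 or of other members was not tested. Capitals mark the seed, bases 2 to 8, which both share, AGGUAGU.
miR-196a-5p: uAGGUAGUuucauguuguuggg
miR-196b-5p: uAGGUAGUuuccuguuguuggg

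Promoter windows, from 250 bases before to 50 after the start, were matched in RefSeq (GRCm38.p6) for 22 of the 39 genes and gave 24 windows. Hoxb13, Hoxb6, Hoxb7, Hoxb9, Hoxc8, Hoxc9 and Hoxc10 had no window. Most Hox genes whose counting interval lay above 1 are therefore left out of what follows. CpG-rich promoters are typical of Polycomb targets. The Hox windows held a median of 14.5 CpG dinucleotides (4 to 45), against 7 over 32851 windows of all genes. Windows of genes detected in the dKO-labelled library had a median of 17.5 (18 windows), and those of genes with no read in either library 11 (6 windows), with ranges that overlap. Over all genes, windows of symbols at 0 in the control had a median of 6, and those of such symbols with at least 5 reads in the dKO-labelled library 16, a value like that of the Hox windows. The motif CCAAT, on either strand, was in 62.5% of Hox windows and 37.4% of all, TTTATG in 20.8% and 11.9%, and TATAAA in 16.7% and 13.6%. A match is a description of the letters in the window and not a bound site.

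Windows of 3 genes are printed to show this spread: Hoxb4, with the most reads of the matched genes (51 in the dKO-labelled library and 2 in the control), Hoxa5 (10 and 0) and Hoxa9 (none in either). Hoxa5 and Hoxa9 were chosen after their values were seen. Capitals mark CpG dinucleotides, 14 in Hoxb4 (chr11:96318017-96318316, plus strand), 29 in Hoxa5 (chr6:52204538-52204837, minus strand) and 4 in Hoxa9 (chr6:52227321-52227620, minus strand).
Hoxb4: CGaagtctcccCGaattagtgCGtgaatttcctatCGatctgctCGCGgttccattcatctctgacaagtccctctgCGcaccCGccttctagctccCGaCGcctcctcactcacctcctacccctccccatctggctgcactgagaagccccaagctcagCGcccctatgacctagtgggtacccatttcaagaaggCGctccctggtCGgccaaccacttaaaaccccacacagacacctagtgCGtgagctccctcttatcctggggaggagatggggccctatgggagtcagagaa
Hoxa5: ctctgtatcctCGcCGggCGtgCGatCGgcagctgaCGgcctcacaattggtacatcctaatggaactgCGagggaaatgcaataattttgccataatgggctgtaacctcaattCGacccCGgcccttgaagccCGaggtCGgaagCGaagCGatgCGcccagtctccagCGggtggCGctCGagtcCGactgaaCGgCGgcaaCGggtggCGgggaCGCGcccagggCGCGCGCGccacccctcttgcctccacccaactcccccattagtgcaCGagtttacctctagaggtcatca
Hoxa9: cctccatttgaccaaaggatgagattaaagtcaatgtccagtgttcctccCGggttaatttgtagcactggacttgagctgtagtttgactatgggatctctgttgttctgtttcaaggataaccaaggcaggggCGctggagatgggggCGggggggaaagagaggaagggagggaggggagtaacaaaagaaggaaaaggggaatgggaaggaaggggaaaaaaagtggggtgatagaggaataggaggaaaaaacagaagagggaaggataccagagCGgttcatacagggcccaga

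**Figure D5:**
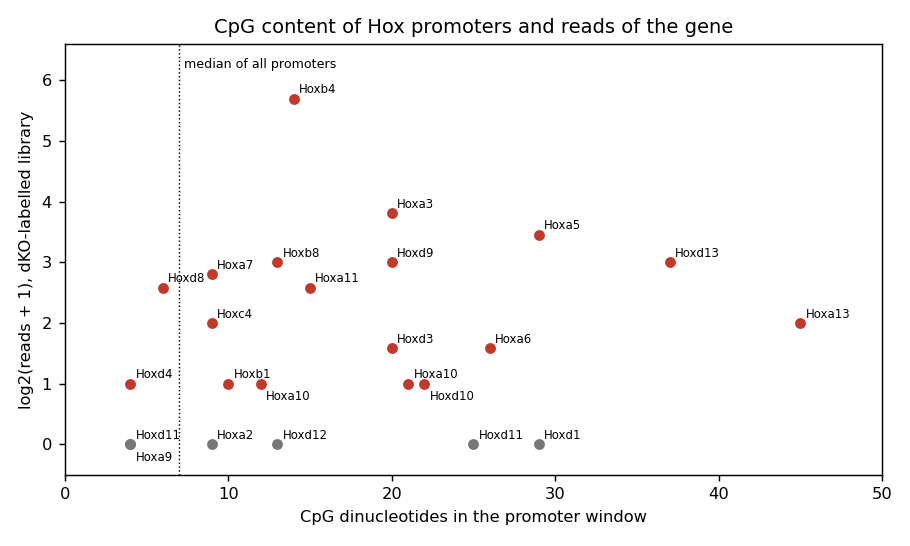
CpG dinucleotides in each matched Hox promoter window (horizontal axis) against log2(reads + 1) of the gene in the dKO-labelled library (vertical axis), with grey points for genes without a read; Hoxa10 and Hoxd11 have 2 windows each. Most windows lie right of the dotted median of all promoters (7), and Hoxb4, with the most reads of the matched genes, has 14.

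Genes that work with Hox proteins or act on the clusters were examined as 4 lists. Of 9 TALE cofactors, the homeodomain partners that bind DNA with Hox proteins, 6 were matched, and 3 were at least 2-fold higher and 0 lower, against 17.9% and 4.31% of all symbols. They summed to 167 reads in the dKO-labelled library and 58 in the control. Pbx3 had 8 and 0 reads, Pbx2 104 and 39 (ratio 2.40, 1.65 to 3.57) and Pbx4 30 and 13. The caudal gene Cdx1, an activator of Hox clusters and an intestinal identity factor, had 249 reads in the dKO-labelled library and 64 in the control (3.51, 2.65 to 4.69). Cdx2 had 278 and 127 (1.97, 1.59 to 2.45) and Pdx1, a duodenal and pancreatic ParaHox gene, 8 and 9, while Gsx1 and Gsx2 had none in either. Of these 5 matched genes 1 was higher and 0 lower, against 17.9% and 4.31% of all symbols.

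Of 9 matched Trithorax genes, which counter Polycomb at Hox clusters, 2 (22.2%) were higher and 1 lower, against 17.9% and 4.31% of all symbols, a share near the background, and their sum was nearly equal at 474 and 418 reads (ratio 1.02, 0.894 to 1.17). The H3K27 demethylase gene Kdm6a had 23 reads in the dKO-labelled library and 71 in the control (0.292, 0.174 to 0.473), Wdr5 66 and 25, Psip1 27 and 11 and Rbbp5 37 and 20. Kdm6a is X-linked and escapes X inactivation, and the part of sex in its value was not tested. Of 10 matched genes of retinoic acid signalling, which switches on anterior Hox genes in embryos, 3 (30.0%) were higher and 0 lower, against the same 17.9% and 4.31%. All 3 encode retinaldehyde dehydrogenases. Aldh1a1 had 163 and 24 reads (6.12, 3.97 to 9.83), Aldh1a2 14 and 1 and Aldh1a3 25 and 6. The receptor gene Rarg had 2 and 0, and the retinoic acid-degrading Cyp26a1 and Cyp26b1 had none in either.

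Counting can blur genes that overlap. In the RefSeq table Hoxa3 overlaps Hoxa4, Hoxa5 and Hoxa6, Hoxb3 overlaps Hoxb4, Hoxd3 overlaps Hoxd4, and Hoxd10 overlaps Hoxd11, so the division of reads within these sets is uncertain. Hoxa10 and Hoxb3 each had 2 transcript rows, and in both cases 1 row had 1 read in the dKO-labelled library and the other none. The antisense RNA genes Hoxb5os (with Hoxb5 and Hoxb6), Hoxb3os (with Hoxb2 and Hoxb3), Hoxd3os1 (with Hoxd3) and Hoxa11os (with Hoxa11) overlap members as well, and with a kit that does not mark strand their reads cannot be told apart from those of these members, in the cluster sums too. Hoxb13 overlaps no other Hox gene there.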

How the data were processed

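The table of the whole series was used, with 22040 RefSeq transcripts and 1 library per genotype. The submitters' processing notes name TopHat, DESeq and mm9. For the counting tool, the strand setting and all versions, nothing is given in the sources used. The 2 deposited signal columns hold DESeq base means, per the file headers. All values (100%, within 0.001 of a step) were whole multiples of the column's smallest, 0.949 in the dKO-labelled library and 1.05 in the control, and reads were recovered as steps minus 1, on the reading that 1 read had been added. The deposited fold (ratio), log2 and p-value columns are the authors' own comparison, and the p-values are unadjusted.

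The row with the highest mean stood for each symbol. Size calls used log2((dKO-labelled + 1)/(control + 1)) with a threshold of 2-fold and no filter. Printed ratios are read ratios over the size-factor ratio with 95% Clopper-Pearson intervals, and levels per kilobase have exact Poisson intervals. Folds against 0 control reads used 3 reads, per library, as a floor. They leave out counting error in the dKO-labelled library, so the lower limit of the interval is given beside them. Transcript lengths came from GENCODE M21 and sequences from RefSeq, both on GRCm38 and not on mm9. The depth-matched number of detected genes is a hypergeometric expectation.

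Members and lists were chosen with earlier results of these data known. Members with a read are named with both counts, and 1 member with no read in either library and some list genes are not reported here by name. Up to 4 genes per list were named by absolute log2 ratio, and neighbours with 10 or more reads were named. Marker lists are given by sums, with genes at 0 or named as examples after their values were seen. The functions were checked on simulated counts. Python 3.11.15, pandas 2.3.3, numpy 2.4.6, scipy 1.17.1, matplotlib 3.10.9, R 4.3.3 and edgeR 4.0.16 (scaling factors only) were used.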

Additional observations from a re-analysis of the deposited data

How the results depend on the processing

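With 1 library per genotype no replicate could be left out. No paired analysis was possible because each genotype has a single library. Total counts, TMM and the upper quartile shift log2 ratios by about -0.30, -0.52 and -0.69. The median log2 ratio of symbols with a mean of at least 20 was 0.51 with the deposited factors. Hox genes at least 2-fold higher numbered 21, and 18, 16, 15 and 16 with total counts, TMM, the upper quartile and that median set to 0. They were 10 with a pseudocount of 5, 11 at a mean of at least 5, 2 at a mean of at least 20 and 11 by the counting interval. None was lower under any of these settings. Genes at 0 in the control that reached the read limit numbered 12 at 5 reads, 7 at 10 reads and 1 at 20 reads, and 8.81 were expected at the depth of the control. Detected Hox genes in the dKO-labelled library numbered 32, and 19 at a limit of 5 reads. The summed ratio of 33.0 was 20.4 with the upper quartile and 11.6 without Hoxb13, and that of Hoxb, 47.1, was 10.2 without Hoxb13. The median set to 0, the counting interval, the depth-matched count of genes at 0 in the control that count without Hoxb13, and the marker sums without Tie1 or Ret were added after seeing the data. Depth limits the comparison, since 20 of the 39 genes had 4 or more reads in the dKO-labelled library and the highest control count was 5.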
